A study of Homo sapiens with 4 samples.

Results

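NF-kB subunits and the genes that feed back on them were followed through 4 RNA-sequencing libraries that the labels assign to the oral squamous carcinoma lines SCC15 and CAL27, of which the SCC15-labelled libraries nearly lack squamous markers. The genes were picked by symbol: the subunits NFKB1, NFKB2, RELA, RELB and REL, and the regulators NFKBIA, NFKBIE, NFKBIZ, TNFAIP3 and BIRC3, 10 of the 51103 genes in the deposited count table. All 10 were found, and all 10 passed the filter on low counts, with 57 reads or more in every library. The groups were SCC15-labelled cells with 10 µM 5-AZA-CdR (decitabine, called DAC in the labels), SCC15-labelled cells with DMSO, CAL27 cells with 10 µM decitabine and CAL27 cells with DMSO, each for 48 h. All were grown in DMEM with fetal bovine serum, penicillin, streptomycin and glutamine, and each group was 1 library of polyA RNA, so no value has an SD and a difference within a line has no test. The number of cultures behind a library is not stated. CAL27 is a line from a tongue carcinoma, and decitabine is a cytidine analogue that traps DNA methyltransferases on newly made DNA. The question was which transcripts differ after the drug.

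NF-kB is a family of dimeric transcription factors that are held in the cytoplasm by IkB proteins until a signal such as TNF or interleukin 1 activates the IKK kinases. In the canonical route IKK marks IkB-alpha for destruction and frees dimers of RelA and p50. In the noncanonical route the kinase NIK drives processing of p100 to p52, which acts with RelB. The dimers then switch on genes for cytokines and survival factors and, with them, several of their own subunits and inhibitors, so the transcripts of these genes are often read as a trace of the activity of the pathway. Keratinocytes and squamous carcinoma cells use the pathway in inflammation and survival.

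The promoters are shown first because several of these genes are themselves classical NF-kB targets. RefSeq promoter windows (GRCh38.p14, 250 bases before to 50 after an annotated start) were found for 8 of the 10 genes, 13 windows in all. RELB and NFKBIE were not matched. The kappaB consensus was searched on both strands, and overlapping matches were merged. It was matched in 9 of the 13 windows, 69.2%, against 3956 of 35116 windows of all genes, 11.3%. By gene, 7 of 8 had a match in some window and RELA had none, against 13.2% of all 27305 symbols. Classical NF-kB targets are among the genes picked, so these shares follow in part from the choice and are no test. A match is a description of letters and says nothing of binding. The windows held a median of 28 CpG sites, against 14 over all windows, and ranged from 7 in a RELA window to 48 in the other RELA window. The median GC content of the 13 windows was 68.7%, against 58.7% over all windows. The part of GC content in the share of matches was not tested. The windows with a match from 3 of the 4 genes with the largest decitabine ratios in SCC15-labelled cells (NFKB2, REL and BIRC3) and from NFKBIA, whose ratio was alike in both lines, are given below 5′ to 3′ on the strand of the gene, with kappaB matches in capitals.
NFKB2 window 2, chr10:102394328-102394627, plus strand: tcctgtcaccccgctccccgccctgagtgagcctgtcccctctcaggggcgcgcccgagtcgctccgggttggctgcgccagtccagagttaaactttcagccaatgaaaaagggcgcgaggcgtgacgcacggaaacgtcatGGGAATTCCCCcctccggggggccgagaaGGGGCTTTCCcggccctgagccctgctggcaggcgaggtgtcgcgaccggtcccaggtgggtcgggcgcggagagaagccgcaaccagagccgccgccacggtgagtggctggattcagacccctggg
NFKB2 window 3, chr10:102395455-102395754, plus strand: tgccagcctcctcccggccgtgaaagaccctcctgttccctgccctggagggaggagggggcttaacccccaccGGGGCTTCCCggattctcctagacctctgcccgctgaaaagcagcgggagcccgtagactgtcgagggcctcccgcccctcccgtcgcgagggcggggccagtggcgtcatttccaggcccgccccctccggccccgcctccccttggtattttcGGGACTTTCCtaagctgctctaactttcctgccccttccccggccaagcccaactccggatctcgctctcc
REL window 1, chr2:60881324-60881623, plus strand: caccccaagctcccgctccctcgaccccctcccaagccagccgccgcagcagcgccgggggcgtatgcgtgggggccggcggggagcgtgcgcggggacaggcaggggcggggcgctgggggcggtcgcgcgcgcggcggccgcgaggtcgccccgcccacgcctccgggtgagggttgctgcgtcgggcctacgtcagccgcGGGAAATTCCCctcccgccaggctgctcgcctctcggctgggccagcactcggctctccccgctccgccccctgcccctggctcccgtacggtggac
BIRC3 window 1, chr11:102317234-102317533, plus strand: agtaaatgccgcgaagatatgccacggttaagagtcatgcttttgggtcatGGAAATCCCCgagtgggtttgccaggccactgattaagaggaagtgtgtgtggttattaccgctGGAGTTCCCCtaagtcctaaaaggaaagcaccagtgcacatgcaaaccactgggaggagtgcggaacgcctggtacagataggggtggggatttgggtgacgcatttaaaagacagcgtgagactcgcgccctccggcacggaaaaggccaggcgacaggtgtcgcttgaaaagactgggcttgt
NFKBIA window 1, chr14:35404700-35404999, minus strand: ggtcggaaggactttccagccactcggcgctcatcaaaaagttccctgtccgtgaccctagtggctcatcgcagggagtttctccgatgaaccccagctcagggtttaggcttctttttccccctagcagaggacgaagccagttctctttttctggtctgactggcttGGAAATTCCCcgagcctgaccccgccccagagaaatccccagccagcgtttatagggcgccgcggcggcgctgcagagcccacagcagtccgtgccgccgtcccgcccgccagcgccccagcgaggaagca

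NFKB2 had the most matches, 4 in 2 of its 3 windows, among them GGGAATTCCCC and GGGACTTTCC. REL had GGGAAATTCCC beginning 47 bases before its start. NFKB1 had GGGAATTTCC 49 bases before its first start and NFKBIZ had the same letters 223 bases before its first start. BIRC3 and TNFAIP3 shared GGAAATCCCC, beginning 199 and 55 bases before the start, and each had a further match. The BIRC3 window held 15 CpG sites and the REL window 41. Any relation of CpG count to the decitabine ratios was not tested.

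**Figure D1:**
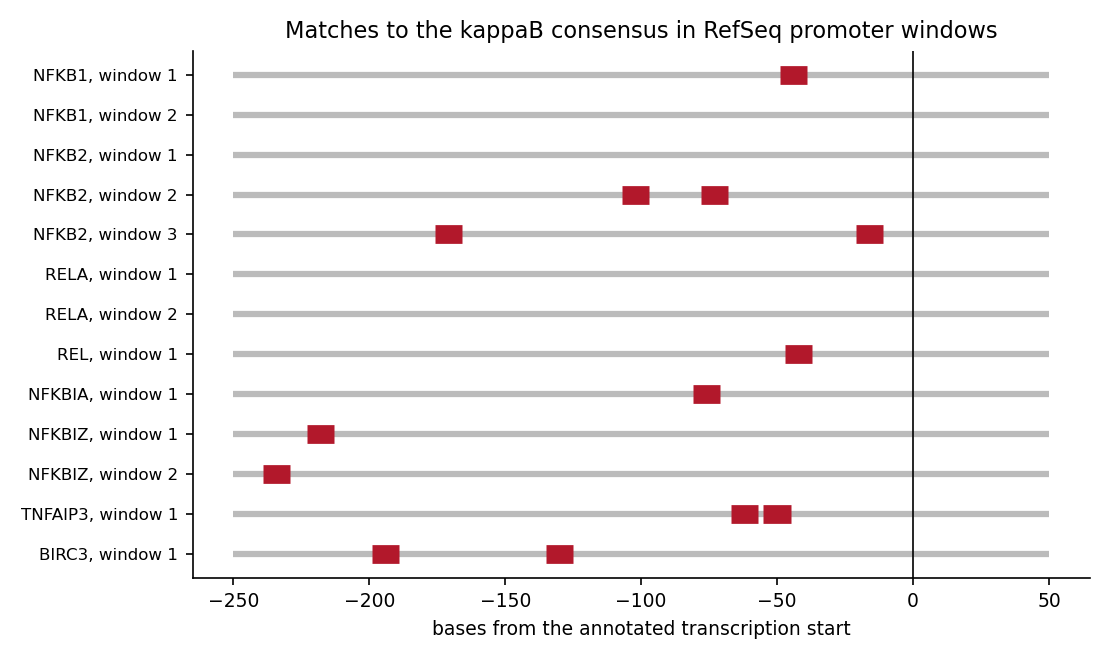
Positions of kappaB consensus matches (red blocks) in the 13 RefSeq promoter windows of 8 genes, drawn as grey lines from 250 bases before to 50 after the annotated start (black line). NFKB2 window 2, NFKB2 window 3, TNFAIP3 and BIRC3 each hold 2 matches, and both RELA windows hold none.

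The libraries had 17583706 reads for SCC15-labelled cells with decitabine, 14830807 for SCC15-labelled cells with DMSO, 14714809 for CAL27 cells with decitabine and 14524461 for CAL27 cells with DMSO. Squamous markers went against the SCC15 label: 12 markers summed to 3.88 and 1.22 CPM (read counts scaled to library size) in decitabine and DMSO SCC15-labelled cells and to 1074 in either CAL27 library, and 9 and 11 of the 12 had 3 reads or fewer in the SCC15-labelled libraries. KRT5, the keratin of basal squamous cells, had 1 and 0 reads there with decitabine and DMSO, against 8359 and 8054 in CAL27. Epithelial markers (8 genes) summed to 2391 and 1588 CPM in SCC15-labelled cells and 2244 and 2752 in CAL27, but the SCC15-labelled sum came almost all from KRT8 (24882 and 11498 reads, against 15699 and 18888) and KRT18. The epithelial cadherin CDH1 had 1 and 4 reads there, against 3911 and 2727 in CAL27, EPCAM 39 and 31, against 4585 and 4368, ESRP1 12 and 1, against 1875 and 1581, and GRHL2 0 and 0, against 610 and 612. Summed fibroblast markers (7 genes) were 82.0 CPM with decitabine and 30.7 with DMSO in SCC15-labelled cells and 51.3 and 19.9 in CAL27, with DCN and FAP at 0 reads in all libraries. COL3A1 had 798 and 322 reads in SCC15-labelled cells, against 0 and 2 in CAL27, and LUM had 58 and 51, against 9 and 0. PDGFRB had 301 and 37, against 97 and 65, so it was lower than in CAL27 with DMSO. COL1A1 and COL1A2 went the other way, with 181 and 20 reads against 669 and 202, and 37 and 0 against 56 and 20. Summed leukocyte markers (7 genes) were 6.20 and 1.29 CPM in SCC15-labelled cells and 7.09 and 5.29 in CAL27, with PTPRC and CD68 at 0 reads throughout. Summed endothelial markers (4 genes) were 2.44 and 1.00 CPM in SCC15-labelled cells and 50.8 and 46.8 in CAL27, where CDH5 alone made up 48.4 and 45.9 and PECAM1 had 3 and 0 reads. In such bulk libraries, fewer cells making a transcript and less of it per cell cannot be told apart. The part of these marker differences in the results was not tested.

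With decitabine, transcripts of the NF-kB genes were more abundant in SCC15-labelled cells, by more than in CAL27 cells. All 10 had log2 ratios above 0 in SCC15-labelled cells, from 0.41 for NFKBIZ to 1.67 for NFKB2 with a median of 0.81. In CAL27, 7 of 10 were above 0, from -0.12 for REL to 0.76 for NFKBIA with a median of 0.20. Of all 15427 genes tested, 8146 were above 0 in SCC15-labelled cells and 7701 in CAL27. Their median was 0.05 in SCC15-labelled cells and 0.00 in CAL27. All of these are log2 ratios of CPM scaled by the trimmed mean of M values (TMM) with a prior count of 2. In SCC15-labelled cells 4 of the 10 (NFKB2, RELB, REL and BIRC3) reached a log2 ratio of 1, where 13.2% of the 13987 genes with 1 CPM or more in either library did and 6.51% lay at -1 or below. In CAL27 0 of 10 did, where 5.14% of 14238 genes did and 1.29% lay at -1 or below.

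No NF-kB gene passed the test of a shared decitabine effect. In a quasi-likelihood fit by edgeR, with cell line and treatment as terms and the other line as the replicate, 0 of 10 were called at an adjusted p of 0.05, against a background of 0.544% of tested genes called higher and 0.0778% called lower. At an unadjusted p of 0.05, NFKB2, NFKBIA and RELB were higher, 3 of 10, where 7.78% of all tested genes were. NFKB2 was called with total-count scaling (adjusted p = 0.00628) and without a filter on low counts (adjusted p = 0.0343), and its adjusted p ranged from 0.00628 to 1 over all alternatives. The other 9 genes were called under no alternative that gave a test.

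**Figure D2:**
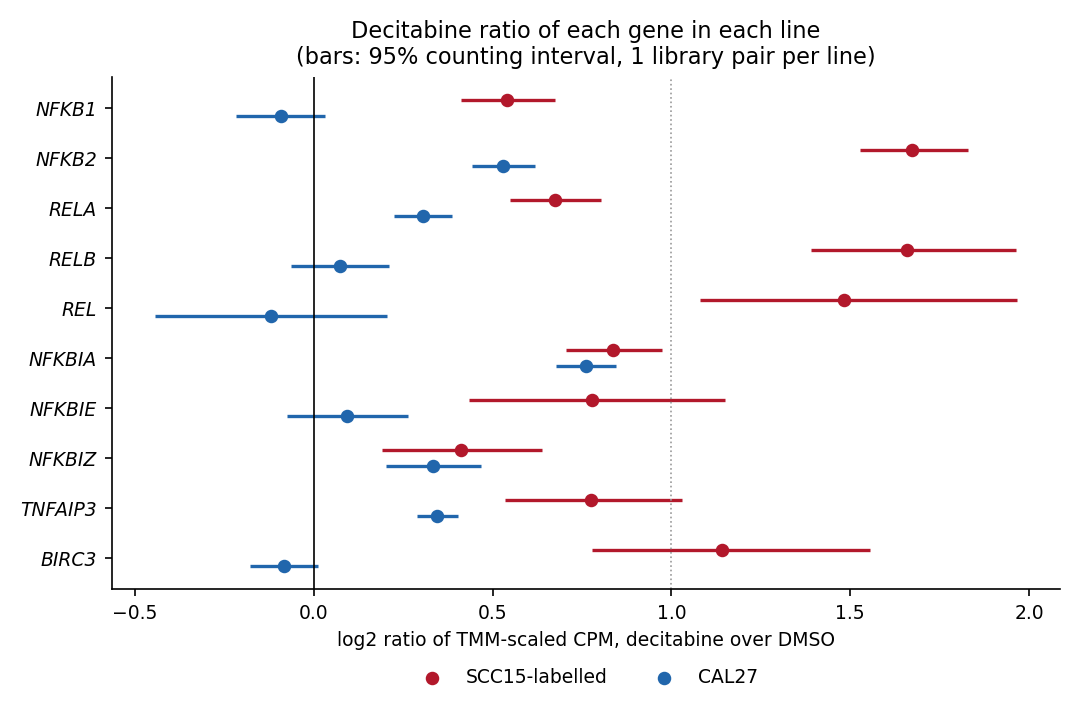
Log2 ratio of TMM-scaled CPM, decitabine over DMSO, of each gene in SCC15-labelled cells (red, upper point) and CAL27 cells (blue, lower point). Bars are exact 95% counting intervals, the dotted line marks a log2 ratio of 1, and red points lie right of blue points for all 10 genes, with overlapping bars for NFKBIA and NFKBIZ.

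Among the subunits, NFKB2, which encodes p100, the precursor of p52 and an inhibitor in its own right, had the largest shared fold change of the 10 on the TMM scale. Its gene lies at chromosome 10, 102394110 to 102402529 (GRCh38, as are all gene positions here). It had 1751 reads with decitabine and 457 with DMSO in SCC15-labelled cells, or 104 and 32.7 CPM. In CAL27 it had 2693 and 1673 reads, or 166 and 115 CPM with decitabine and DMSO. Both decitabine libraries were above the DMSO library of their own line, while the SCC15-labelled decitabine library was still below the CAL27 DMSO library. The log2 ratios were 1.67 (exact 95% counting interval 1.53 to 1.83) and 0.53 (0.44 to 0.62) in SCC15-labelled and CAL27 cells. The shared log2 fold change was 1.10 ± 0.31 (± SE, which borrows its spread from all genes; adjusted p = 0.0943 by edgeR), the 157th smallest p of 15427.

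RELB, the partner of p52 in the noncanonical route (chromosome 19, 45001430 to 45038198), had 493 reads with decitabine and 129 with DMSO in SCC15-labelled cells and 952 and 812 in CAL27. Its FPKM (the deposited count per kilobase of gene, scaled to depth) was 9.24 and 2.87 in SCC15-labelled cells and 21.3 and 18.4 in CAL27. The SCC15-labelled DMSO library was lowest, and the CAL27 libraries lay close together, with a log2 ratio of 0.07 whose counting interval of -0.06 to 0.21 spans 0. The log2 ratio in SCC15-labelled cells was 1.66 (1.39 to 1.96). RELB had a shared log2 fold change of 0.84 ± 0.33 (adjusted p = 0.342 by edgeR).

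REL, the c-Rel subunit best known from lymphocytes (chromosome 2, 60881521 to 60931610), was the scarcest of the 10 per length. It had 195 reads with decitabine and 57 with DMSO in SCC15-labelled cells and 163 and 159 in CAL27. Its level was 0.842 and 0.292 FPKM in SCC15-labelled cells, against 0.841 and 0.831 FPKM in CAL27 with decitabine and DMSO. Only the SCC15-labelled DMSO library stood apart among the 4. The log2 ratios were 1.48 (1.08 to 1.97) and -0.12 (-0.44 to 0.20). REL had a shared log2 fold change of 0.67 ± 0.43 (adjusted p = 0.628 by edgeR).

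NFKB1, the gene of p105 and p50 (chromosome 4, 102501329 to 102617302), had 1285 reads with decitabine and 736 with DMSO in SCC15-labelled cells and 1078 and 1032 in CAL27. Per length it was 11.7 and 7.93 FPKM in SCC15-labelled cells and 11.7 and 11.4 FPKM in CAL27. As for REL, 3 libraries lay together and the SCC15-labelled DMSO library was lower. The log2 ratios were 0.54 (0.41 to 0.68) and -0.09 (-0.22 to 0.03). NFKB1 had a shared log2 fold change of 0.22 ± 0.29 (adjusted p = 0.843 by edgeR). With total-count scaling the CAL27 ratio of NFKB1 turned to 0.05 and that of REL to 0.02, both under the shift of 0.14 that this scaling gave to the median of all genes in CAL27.

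RELA, the p65 subunit with the main transactivation domain of the canonical dimer (chromosome 11, 65653596 to 65663094), had 1469 reads with decitabine and 767 with DMSO in SCC15-labelled cells and 2939 and 2134 in CAL27. It was higher with decitabine in both lines, with log2 ratios of 0.67 (0.55 to 0.80) and 0.31 (0.23 to 0.39). The shared log2 fold change of 0.49 ± 0.29 did not pass (adjusted p = 0.576 by edgeR). RELA overlaps the noncoding gene AP001362.2 on the opposite strand by 9 bases, and AP001362.2 had at most 24 reads in a library.

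The subunits did not keep the same proportions. Summed FPKM of the 5 was 59.3 with decitabine and 27.4 with DMSO in SCC15-labelled cells and 111 and 83.2 in CAL27. NFKB2 made up 37.5% of that sum with decitabine and 25.1% with DMSO in SCC15-labelled cells, and 36.7% and 30.9% in CAL27. NFKB1 made up 19.7% and 28.9% in SCC15-labelled cells and 10.5% and 13.7% in CAL27. NFKB2 was thus 1.90 times NFKB1 in FPKM with decitabine and 0.866 times with DMSO in SCC15-labelled cells, and 3.49 and 2.26 times in CAL27. RELB made up 15.6% and 10.5% in SCC15-labelled cells, but 19.2% and 22.1% in CAL27, where its share was lower with decitabine. RELA held 25.8% and 34.5% in SCC15-labelled cells and 32.9% and 32.3% in CAL27, and REL stayed between 0.756% and 1.42% in all 4 libraries. These are transcript shares in 1 library each, with no test.

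**Figure D3:**
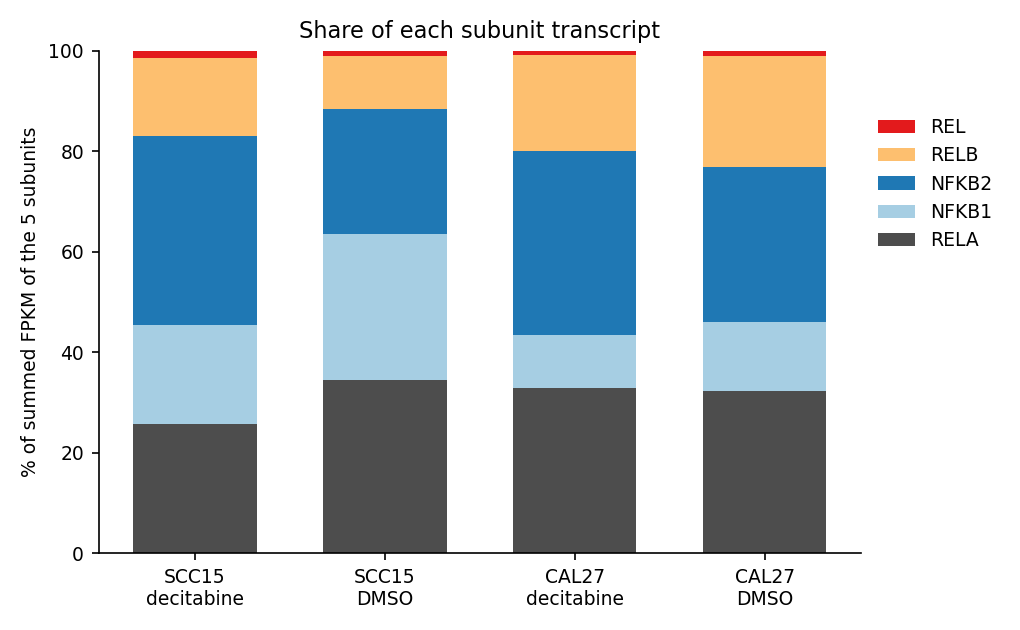
Share of each subunit transcript in the summed FPKM of NFKB1, NFKB2, RELA, RELB and REL, in percent, 1 library per bar. NFKB2 takes 37.5% with decitabine and 25.1% with DMSO in SCC15-labelled cells, and 36.7% and 30.9% in CAL27.

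Among the inhibitors, NFKBIA had a similar ratio in both lines. It encodes IkB-alpha, the inhibitor that is degraded on activation and resynthesised as a target of NF-kB (chromosome 14, 35401511 to 35404749). It had 1456 reads with decitabine and 679 with DMSO in SCC15-labelled cells and 3396 and 1799 in CAL27, or 34.9 and 19.3 FPKM and 97.3 and 52.2 FPKM. Each decitabine library was above its own DMSO library by a like factor, 1.79 in SCC15-labelled cells and 1.69 in CAL27. The log2 ratios were 0.84 (0.71 to 0.97) and 0.76 (0.68 to 0.84). The CAL27 ratio was the largest of the 10 genes there and stood at percentile 90.8 of tested genes. The shared log2 fold change was 0.80 ± 0.28 (unadjusted p = 0.00779, adjusted p = 0.256 by edgeR). In FPKM, NFKBIA was 2.28 times RELA with decitabine and 2.04 times with DMSO in SCC15-labelled cells, and 2.66 and 1.94 times in CAL27.

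NFKBIE, the gene of IkB-epsilon, a slower feedback inhibitor (chromosome 6, 44258166 to 44265788), had 205 reads with decitabine and 99 with DMSO in SCC15-labelled cells and 631 and 531 in CAL27. Its log2 ratio was 0.78 (0.44 to 1.15) in SCC15-labelled cells and 0.09 (-0.08 to 0.26) in CAL27. NFKBIE had a shared log2 fold change of 0.42 ± 0.33 (adjusted p = 0.716 by edgeR). NFKBIZ, the gene of IkB-zeta, a nuclear cofactor that helps switch on a second wave of targets (chromosome 3, 101827991 to 101861022), had 433 and 271 reads in SCC15-labelled cells and 1115 and 794 in CAL27. Its log2 ratios, 0.41 (0.19 to 0.64) and 0.33 (0.20 to 0.47), were small and alike. NFKBIZ had a shared log2 fold change of 0.37 ± 0.29 (adjusted p = 0.713 by edgeR).

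TNFAIP3, the gene of the ubiquitin-editing enzyme A20 that shuts off signalling upstream of IKK (chromosome 6, 137867188 to 137883312), showed the widest gap between the lines with decitabine, while BIRC3 did with DMSO. It had 420 reads with decitabine and 204 with DMSO in SCC15-labelled cells and 6044 and 4270 in CAL27, or 4.73 and 2.72 FPKM and 81.3 and 58.2 FPKM. It was higher with decitabine in both lines, by log2 ratios of 0.77 (0.54 to 1.03) and 0.35 (0.29 to 0.40). TNFAIP3 had a shared log2 fold change of 0.55 ± 0.29 (adjusted p = 0.520 by edgeR). An antisense gene, AL357060.1, shares 1046 bases with it and had 17 reads in both SCC15-labelled libraries and 147 and 134 in CAL27. Strand-specific counting is not stated, so reads of that stretch cannot be told apart.

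BIRC3, the gene of the ubiquitin ligase cIAP2 that works at TNF receptors (chromosome 11, 102317450 to 102339403), had 209 reads with decitabine and 78 with DMSO in SCC15-labelled cells and 1862 and 1771 in CAL27. The SCC15-labelled ratio was 1.14 (0.78 to 1.55) and the CAL27 ratio -0.08 (-0.18 to 0.01), where total-count scaling turned it to 0.05. The shared log2 fold change was 0.48 ± 0.31 (adjusted p = 0.630 by edgeR).

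**Figure D4:**
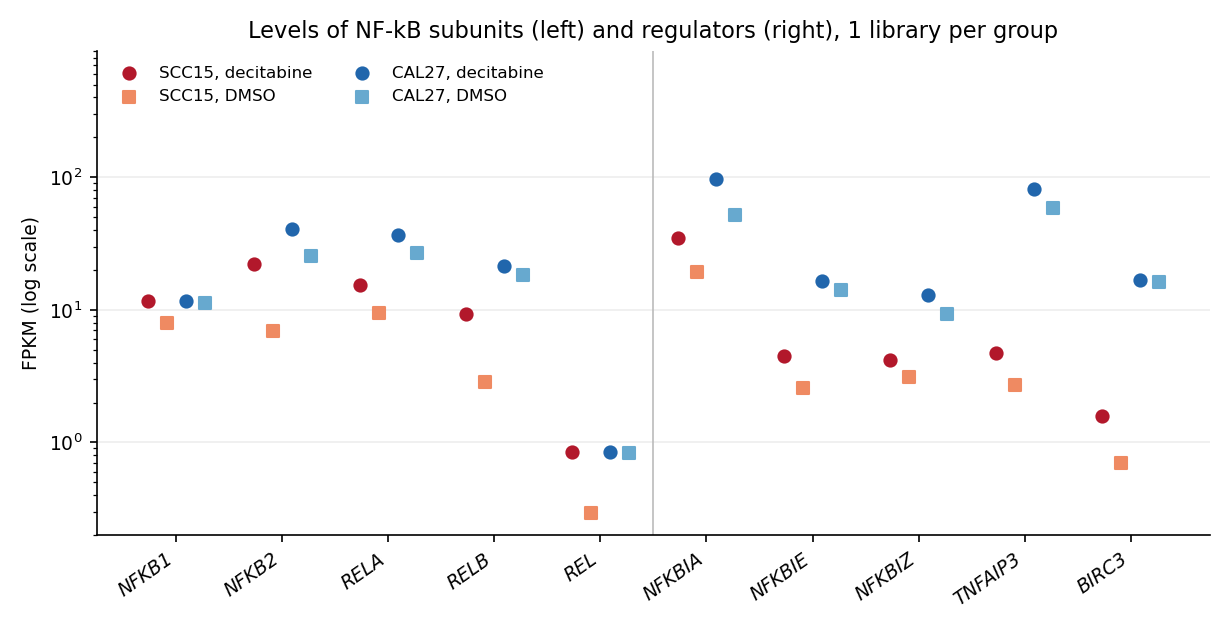
FPKM (log axis) of each gene in the 4 libraries, SCC15-labelled in red and orange, CAL27 in blue, circles for decitabine and squares for DMSO. TNFAIP3 and BIRC3 have the widest gap between lines, while NFKB1 and REL with decitabine lie at 11.7 and 0.842 FPKM in SCC15-labelled cells, against 11.7 and 0.841 in CAL27.

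SCC15-labelled cells held less of these transcripts than CAL27 cells. In the same edgeR model, 8 of the 10 genes were lower in SCC15-labelled cells and 0 were higher, where 22.7% of all tested genes were lower and 21.6% higher. TNFAIP3 had a log2 difference, SCC15-labelled minus CAL27, of -4.11 ± 0.32 (adjusted p = 2.21e-13), and BIRC3 of -3.80 ± 0.34 (adjusted p = 5.46e-12). NFKBIE, RELB, NFKBIZ, NFKBIA, NFKB2 and RELA followed, at -2.01, -1.77, -1.45, -1.31, -1.24 and -1.23, and the largest adjusted p among these 6 was 0.00111. Values of RELB and NFKB2 turned on the treatment: RELB differed by -0.995 in the decitabine libraries and by -2.58 in the DMSO libraries, which are the values left without a DMSO or a decitabine library, and NFKB2 by -0.67 and -1.81. For those 8 genes, both SCC15-labelled libraries lay under both CAL27 libraries. The share of all tested genes separated in this way was not counted. REL (-0.57 ± 0.43, adjusted p = 0.294) and NFKB1 (-0.11 ± 0.29, adjusted p = 0.788) did not pass, and their groups overlapped. All 8 calls, and no other among the 10, were made under each alternative that gave a test. Without either DMSO library, only the decitabine gap is left, and on the TMM scale it was 0.20 for NFKB1 and 0.21 for REL. The treatment is the replicate in this test, so the p-values speak of these libraries.

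The gap between lines was narrower with decitabine in size for each of the 10 genes on the TMM scale. Each had the larger ratio in SCC15-labelled cells, which by arithmetic is the same difference and not a separate result. All 10 values rest on the same SCC15-labelled DMSO library. A larger ratio there narrows a gap only where SCC15-labelled cells start lower, as all 10 genes did with DMSO. For BIRC3 the log2 difference between lines was -3.19 with decitabine and -4.42 with DMSO. For REL it was 0.21 and -1.39 and for NFKB1 0.20 and -0.43, so both changed sign on the TMM scale. That change rests on the scaling. In deposited FPKM the decitabine libraries were near level, at 0.842 in SCC15-labelled cells and 0.841 in CAL27 for REL. For NFKB1 they were at 11.68 and 11.71. Over all tested genes, 54.2% had the larger ratio in SCC15-labelled cells, which is not a share of narrower gaps. The larger ratio was in SCC15-labelled cells for 8 of 10 with total-count scaling, where 47.6% of tested genes had it. NFKBIA (0.85 in SCC15-labelled cells and 0.90 in CAL27) and NFKBIZ (0.43 and 0.47) were then larger in CAL27. The count was 9 of 10 with the GC trend removed, where 56.5% of tested genes had the larger ratio in SCC15-labelled cells and NFKBIA was 0.62 and 0.74. The difference in response between the lines has no residual degrees of freedom in this design and was not tested.

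Transcript GC content tracked the decitabine ratios, with Spearman's rho of 0.496 in SCC15-labelled cells and 0.248 in CAL27 across 15427 genes, which are not independent replicates. RELB (65.4% GC), NFKB2 (62.4%) and NFKBIE (61.0%) were in the GC-rich end, at percentiles 97.1, 92.0 and 88.9 of tested genes, while REL (38.7%) and BIRC3 (34.8%) were at percentiles 10.8 and 1.49. With the GC trend removed, the SCC15-labelled ratio was 1.18 for NFKB2, 1.15 for RELB, 1.95 for REL and 1.84 for BIRC3, all still past 1. RELA and NFKBIE were then at 0.29 and 0.30. In CAL27 the ratios of RELB and NFKBIE turned to -0.19 and -0.09 and that of BIRC3 to 0.01. The shared log2 fold change was then largest for REL (0.95), followed by BIRC3 (0.83), NFKB2 (0.75) and NFKBIA (0.68). RELB, RELA and NFKBIE stood at 0.45, 0.25 and 0.095, and the smallest adjusted p by edgeR was 0.102. The part of GC content in the results was not tested further.

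Upstream and downstream of these genes, ratios were spread along the pathway in an uneven way. Genes of the activating ligands had median log2 ratios of 2.13 in SCC15-labelled cells and 0.76 in CAL27, and 1 of 8 tested passed the shared test, IL1B, the gene of interleukin 1 beta, which rose. IL1B had 87 reads with decitabine and 1 with DMSO in SCC15-labelled cells and 4084 and 2082 in CAL27, with log2 ratios of 4.72 and 0.82. TNF had 55 reads with decitabine and 1 with DMSO in SCC15-labelled cells and 879 and 498 in CAL27, with log2 ratios of 4.08 (2.98 to 10.85) and 0.66 (0.50 to 0.83), and did not pass (unadjusted p = 0.00161, adjusted p = 0.122). IL1A, the gene of interleukin 1 alpha, had 66 and 8 reads in SCC15-labelled cells and 3290 and 2160 in CAL27 (1.15 ± 0.37, adjusted p = 0.177). Of the 14 ligand genes listed, 6 had too few reads to be tested. With TNFSF15, which had 5 reads with decitabine and 0 with DMSO in SCC15-labelled cells, put at its bound against 3 reads, the SCC15-labelled median of the ligands was 1.54. LTB passed the filter through its decitabine libraries alone, and without it the medians were 1.72 and 0.71. With both changes the SCC15-labelled median was 0.55, so its size rests on these 2 genes of few reads.

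Receptors had medians of 0.60 and 0.16 (0.61 in SCC15-labelled cells without 3 genes at 3 reads or fewer in both libraries), with 0 of 20 tested genes called. TNFRSF1A, the main TNF receptor, had 4194 reads with decitabine and 1816 with DMSO in SCC15-labelled cells and 1538 and 1063 in CAL27 (0.66 ± 0.29, adjusted p = 0.400). It was higher in SCC15-labelled cells than in CAL27, by 1.11 on the log2 scale (adjusted p = 0.00182), opposite to the 8 NF-kB genes. TNFRSF12A, the TWEAK receptor, had ratios of 0.36 and 0.33, and IL17RC, a subunit of the interleukin 17 receptor, 0.79 and 0.29. Adaptors and ubiquitin ligases had medians of 0.11 and -0.02 (0.19 in SCC15-labelled cells without 2 such genes), with 0 of 31 called. TRADD, the adaptor of TNF receptors, had ratios of 0.65 and 0.67, and MALT1, the paracaspase that cuts A20, -0.43 and -0.48. UBE2V1, a cofactor of chain-building on TRAF6, had -0.66 and -0.37 with at most 98 reads.

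The kinases had medians of -0.10 in SCC15-labelled cells and 0.16 in CAL27, with 0 of 8 called. MAP3K14, the gene of NIK, had 430 reads with decitabine and 259 with DMSO in SCC15-labelled cells and 452 and 272 in CAL27, or log2 ratios of 0.47 (0.24 to 0.70) and 0.57 (0.36 to 0.80) (0.52 ± 0.33, adjusted p = 0.617). IKBKB, the catalytic subunit of IKK in the canonical route, had -0.32 and -0.34, and IKBKG, the regulatory subunit NEMO, 0.21 and 0.31, a value made uncertain by a near-identical pseudogene copy. Other inhibitors and deubiquitinases had medians of 0.28 and -0.02, with 0 of 17 called. Of these, BCL3, a nuclear IkB protein that binds p50 and p52, had 284 and 135 reads in SCC15-labelled cells and 719 and 393 in CAL27, ratios of 0.80 and 0.71 (0.76 ± 0.33, adjusted p = 0.389). ZC3H12A, an RNase that degrades cytokine mRNA, had ratios of 1.16 and 0.34, and TNIP1, which recruits A20, 1.47 and 0.20.

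Other target genes were listed with earlier results of these data known, so their share of calls is a description only. They had medians of 1.23 and 0.59. Of 37 tested, 8 rose in the shared test and 0 fell, where 0.544% of all tested genes were called higher. Among them were the neutrophil chemokine gene CXCL8, with 1994 reads with decitabine and 560 with DMSO in SCC15-labelled cells and 3400 and 1593 in CAL27 (1.25 ± 0.29, adjusted p = 0.0284), and CXCL1, another neutrophil chemokine gene, with 1784 and 370 reads and 1829 and 972 (1.38 ± 0.31, adjusted p = 0.0205). CCL2, a monocyte chemokine gene, had 214 and 40 reads in SCC15-labelled cells and 7113 and 3119 in CAL27 (1.51 ± 0.32, adjusted p = 0.0139). C3, the central complement component, had 489 and 55 reads and 13362 and 7841 (1.64 ± 0.37, adjusted p = 0.0205). TNFAIP2, a TNF-induced gene, had 6427 and 2260 reads and 8855 and 3881 (1.14 ± 0.29, adjusted p = 0.0495), a call that ended with relative log expression factors (adjusted p = 0.0510) and with the GC trend removed (adjusted p = 0.160). IL1B also missed with relative log expression factors (adjusted p = 0.0513). With DESeq2 the calls of CXCL1, C3, CXCL5, CCL20, ICAM1 and IL1B ended, and with limma on log2(FPKM + 1) all but that of CCL20 did. CXCL5, CCL20 and ICAM1 were the other 3 genes called, and CXCL5 had 0 reads in both DMSO libraries, so it could only come out higher. CXCL5 had 51 and 13 reads with decitabine in SCC15-labelled and CAL27 cells. The log2 ratio of CCL20 was 5.53 in SCC15-labelled cells and 2.34 in CAL27, and that of ICAM1 was 3.82 and 0.37. Without CXCL5 the medians of the target genes were 1.19 and 0.56. Reads of the related genes CXCL1, CXCL2 and CXCL3 may be shared in counting. EFNA1, an ephrin ligand induced by TNF, had ratios of 1.03 and 1.22 (adjusted p = 0.0743), and IRF1, a transcription factor shared with interferon signalling, 0.98 and 0.78 (adjusted p = 0.202). CXCL3 had 2.27 and 0.72 (adjusted p = 0.158).

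**Figure D5:**
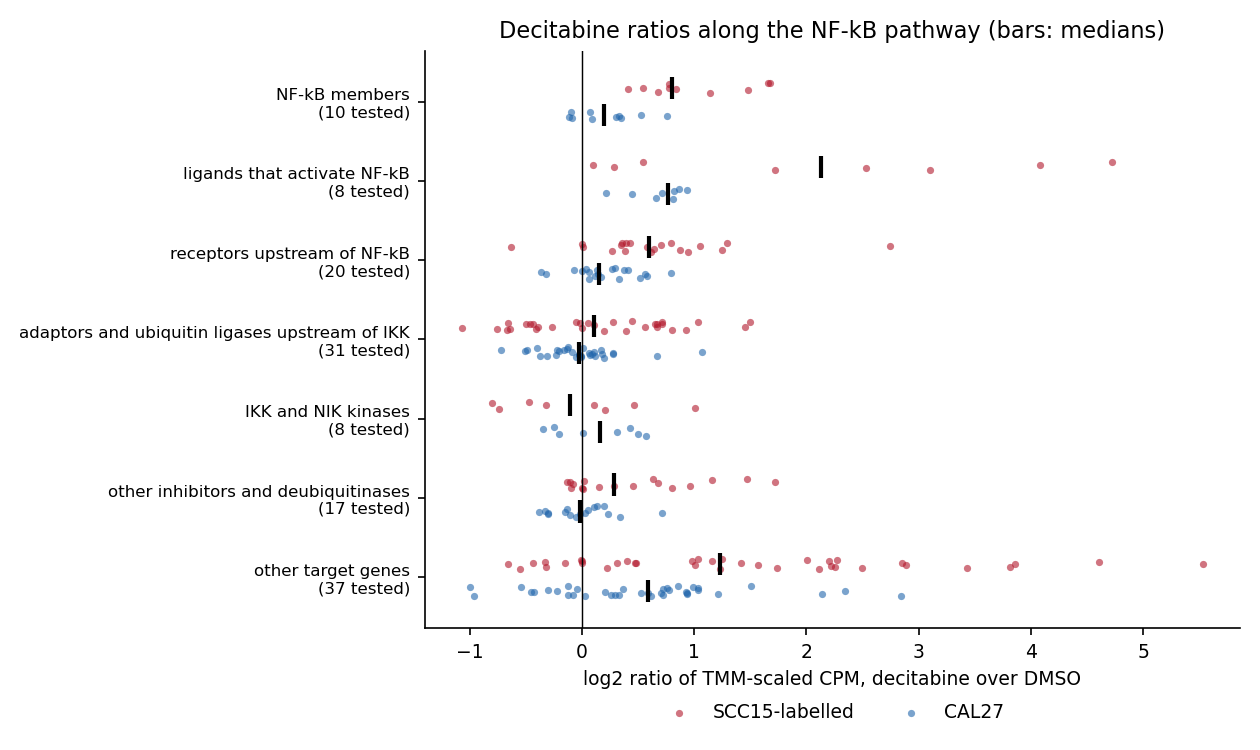
Log2 ratio of TMM-scaled CPM, decitabine over DMSO, of each tested gene in 7 groups along the pathway, SCC15-labelled cells in red above CAL27 cells in blue, with black bars for medians. The medians of the ligands (2.13 and 0.76, the SCC15-labelled one 0.55 without LTB and with TNFSF15 at its bound) and other target genes (1.23 and 0.59) are shown beside those of the kinases (-0.10 and 0.16).

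The 5 genes outside the pathway lists whose pattern over the 4 libraries was nearest to the median of the 10 NF-kB genes were MOV10, CCDC120, CTSB, CSF1 and DENND3, by Euclidean distance of centred log2 CPM among 10450 genes with 30 reads or more in every library. The distances ran from 0.0401 for MOV10 to 0.109 for DENND3. The nearest members were NFKBIA at 0.311 and RELA at 0.316, with 71 and 75 other genes lying as close as they did. TNFAIP3 was farthest, at 2.65. CSF1, the gene of the macrophage growth factor M-CSF, had 393 reads with decitabine and 151 with DMSO in SCC15-labelled cells and 795 and 548 in CAL27.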

How the data were processed

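PolyA RNA was sequenced from 4 libraries of 2 cell lines, and groups were taken from the sample titles. The authors deposited raw read counts per gene for 51103 genes, and FPKM values that give the same gene length in each library; HISAT2, HTSeq 0.13.5 and GRCh38 are named in the submitters' processing notes. No source used here gives the strand setting or the annotation release. Identifiers were matched to GENCODE 29 (51103 of 51103), which gave gene positions and transcript GC content. The members and lists were chosen with earlier results of these data known.

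Counts were fitted over the whole table with edgeR 4.0.16 (R 4.3.3; TMM, filterByExpr by treatment with minimum count 10 and minimum total 15, 15427 genes) with terms for cell line and treatment. Libraries of a line pair by the labels and correlated at r = 0.963 (SCC15) and 0.983 (CAL27) over genes, against at most 0.730 across lines. P-values were adjusted by Benjamini-Hochberg over all genes at 0.05. With 1 residual degree of freedom, the SE comes mostly from other genes (prior degrees of freedom 36.1). It is the log2 fold change divided by the root of F, and it says little of the spread between the lines. Values printed with ± are on the log2 scale. The p-values rest on the same borrowed spread and speak of these libraries only. Exact 95% intervals of count ratios are conditional binomial and cover counting error only, as there are no molecular identifiers. A count of 0 allows up to 3 reads, 0.171 to 0.207 CPM. FPKM were used to compare levels between genes and in limma 3.58.1 alternatives; DESeq2 1.42.0 was another. The fit was tested on simulated data. List medians with genes of 0 reads at their bound, or without genes that passed the filter through decitabine libraries alone, and the other scalings of genes of opposite direction were added after seeing the data. Named genes from the lists are those called and up to 3 with the largest ratio in the weaker line, of the same sign in both and with 30 reads or more in 1 library of each line. The symbol SOD2 was on 2 identifiers, and the one with more reads was used. RIPK2 stands in 2 lists.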

Additional observations from a re-analysis of the deposited data

Results flagged for a closer look

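Decitabine ratios of opposite sign in the 2 lines, with counting intervals clear of 0 in both, were found for 16 of the 130 tested pathway genes, 12.3%, against 11.0% of all 15427 tested genes. None of the 10 NF-kB genes was among them: NFKB1, REL and BIRC3 had negative CAL27 ratios whose intervals reached above 0. The difference between lines was not tested, and these genes were named after their values were seen. Log2 ratios are given for SCC15-labelled cells, then for CAL27.

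The ratio was positive in SCC15-labelled cells and negative in CAL27 for 11 of the 16 genes, as it was for 1088 of the 1704 such genes among all tested. The receptor TNFRSF10A had 1.05 and -0.36. The adaptor TRAF1 had 1.50 and -0.31, and the interleukin 1 receptor kinase IRAK1 had 0.92 and -0.50. The kinase IKBKE had 1.01 and -0.25. Among inhibitors, OTUD7B had 0.46 and -0.38, TNIP2 had 0.68 and -0.30 and ITCH had 0.15 and -0.11. Among target genes, PTGS2 had 0.31 and -0.30, SDC4 had 1.23 and -0.12, CCND1 had 0.47 and -0.96 and BIRC5 had 0.23 and -0.54. The negative CAL27 sign of ITCH and SDC4 rests on TMM scaling: with total-count scaling their CAL27 ratios were 0.029 and 0.016, and their deposited FPKM in CAL27 were 28.1 with decitabine and 27.5 with DMSO for ITCH and 581 and 575 for SDC4.

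The ratio was negative in SCC15-labelled cells and positive in CAL27 for 5 genes. The ubiquitin ligase PELI1 had -0.64 and 0.28, and TANK had -0.47 and 0.43. The antioxidant enzyme SOD2 had -0.15 and 0.99, with 2200 reads with decitabine and 2040 with DMSO in SCC15-labelled cells and 12617 and 5691 in CAL27. The protease PLAU had -0.55 and 0.72, and GADD45B had -0.33 and 0.93.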

How the results depend on the processing

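For the shared decitabine effect, the count of all genes called higher and lower (84 and 12) was 313 and 21 with total-count scaling, 155 and 21 without a filter, 156 and 25 with the GC trend removed, 20 higher with DESeq2, and 1 and 1 with limma on log2(FPKM + 1). Without the replicate block (cell line left out of the model) it was 0 and 0. NF-kB genes called higher were 1, NFKB2, with total-count scaling and without a filter, and 0 under the other settings. The 8 calls between lines were made in every fit with a test. Pairing by line comes from the labels; without it all 9 target and ligand calls ended. Leaving out 1 library ends the test and leaves the other line's ratio: without either SCC15-labelled library NFKB1, REL and BIRC3 stand at -0.09, -0.12 and -0.08. The cause of these changes was not tested. With 57 to 195 reads in the lowest and highest REL libraries, counting error is widest for REL.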
